A study of Danio rerio with 11 samples.

Results

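The combined parental exposure to 2 phthalate isomers was compared, gene by gene, with the sum of the 2 single exposures. RNA came from whole zebrafish larvae (Danio rerio, wild-type strain AB) at 120 h after fertilization. Their parents had been kept for 30 days with dibutyl phthalate and diisobutyl phthalate together (combined, 3 libraries), with dibutyl phthalate alone (DBP, 3 libraries), with diisobutyl phthalate alone (DiBP, 3 libraries), or with neither (control, 2 libraries). All 11 libraries of the series entered the comparison, which used no selection of samples. DBP and DiBP are plasticizers that carry the same atoms with straight and branched butyl chains. The sources used here give neither the doses nor the hour of collection of each group, and another control library that the series describes was not analysed here. Whether the combined exposure held each isomer at the dose of its single exposure is therefore not known. The labels leave unsaid whether the libraries of a group came from separate clutches or tanks, so each p-value measures spread among these samples only, and that spread may be technical.

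Additivity on a log scale means that fold changes multiply. The interaction used here is the combined change minus the DBP change minus the DiBP change, each against control on the log2(FPKM + 0.1) scale, where FPKM is a read count scaled to gene length and library total. Log2 changes come from TMM-scaled values, which correct for composition, and the added 0.1 makes the change of a gene near 0 FPKM look smaller. A negative interaction means that the combined larvae lay below the sum of the single changes, and a positive one that they lay above it. The 3 changes share the same 2 controls, so an error in the control mean shifts all 3 equally and shifts the interaction the other way. Differences between combined larvae and either isomer group do not use the controls and are given beside it.

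The combined larvae did not carry the sum of the single changes for a large part of the transcripts. Of 27625 genes in the files, 8160 with low values were left out and 19465 were tested. The interaction passed the threshold (limma, adjusted p under 0.05 by Benjamini-Hochberg) in 6626 genes, 34.0% of those tested. It was positive in 3016 genes (15.5%) and negative in 3610 (18.5%), with a median standard error of 0.27 over all genes. All 6626 had the same sign when the interaction was taken on linear mean FPKM. With values as deposited, without the composition scaling (TMM factors), the median interaction moved by 0.20, and 4796 genes were called positive and 2770 negative, so the share of called genes that was positive was 63.4% in place of 45.5%.

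In comparisons with the controls, limma called 670 genes in combined larvae (3.44% of those tested), 2943 in DBP larvae (15.1%) and 5806 in DiBP larvae (29.8%). Against DBP larvae, 3915 genes were called in combined larvae (20.1%), and against DiBP larvae 4675 (24.0%). The comparisons with control share the same 2 libraries, so their gene lists are not compared with each other here.

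Library depth was 13396589 to 15381114 recovered reads. Control library 1 stood apart from control library 2: they differed by at least 2-fold in 2338 genes (12.01%), against 361 to 564 genes between libraries of DBP or of DiBP. Control library 1 had a summed level of 6 matched muscle marker genes of 1440 FPKM, against 10900 FPKM in control library 2, and a summed level of 5 lens markers of 2340 against 610 FPKM; no matched tissue marker was at 0 in every library. Combined library 3 differed by at least 2-fold from the other 2 combined libraries in 1235 and 1219 genes (6.34% and 6.26%), among them many genes of the circadian clock. For several named results that rest on either library, the value or the class without that library is given.

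**Figure D1:**
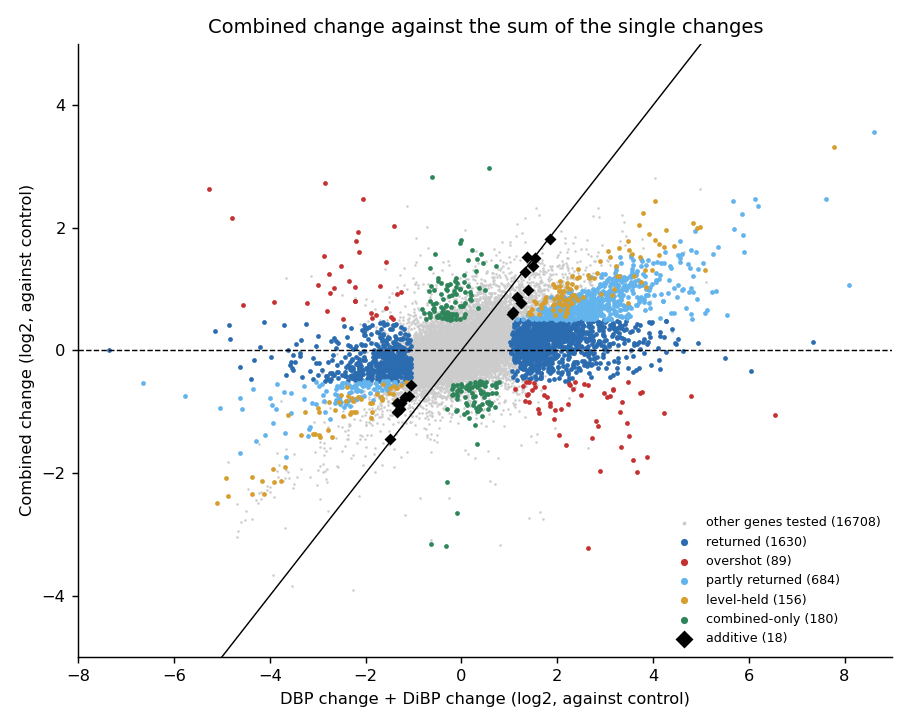
Each point is 1 of 19465 genes; the horizontal axis is the sum of the DBP and DiBP changes and the vertical axis the combined change, both in log2 against control. On the solid line the combined change equals the sum, and on the dashed line it equals the control level. The 1630 returned genes were chosen to lie near the dashed line, and the 89 overshot genes lie across it. The 18 additive genes were chosen by an interaction interval inside -1 to 1, which also admits genes off the solid line.

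In 3431 genes both single changes had the same sign and a size of at least 0.5. The interaction was called in 2567 of these, and in all 2567 its sign was opposite to that of the single changes. In 2403 of them the combined change was smaller than both single changes or had the opposite sign. The shared controls push the interaction in this direction whenever their mean is off, so the size of this one-sidedness carries that dependence. In the remaining 864 genes the interaction was not called. Of these, 18 had a 95% interval of the interaction inside -1 to 1, while 846 had a wider interval and can be placed neither as additive nor as non-additive.

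The called genes were sorted by where the combined larvae ended. In 1630 genes (8.37% of those tested) the combined change was under 0.5 in size although both isomers had moved the gene the same way by at least 0.5; these are called returned. The isomers raised 1118 of them and lowered 512. Their median sizes of change were 0.23 in combined, 0.78 in DBP and 0.91 in DiBP larvae. These values chose the genes and are a description. The choice also places the combined mean on the control side of both isomers, so nothing is read from counts of these genes called against either isomer.

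In 89 genes the combined larvae crossed the control level and moved at least 0.5 to the other side; these are called overshot. The isomers had raised 55 of them and lowered 34. A further 684 genes kept the direction of the isomers but at a smaller size than either (partly returned), and 156 lay between the smaller and the larger single change (level-held). Another 180 genes changed by at least 0.5 in combined larvae alone (combined-only). In the largest class, 1900 called genes, no group changed by as much as 0.5, and the median size of the interaction was 0.61. At the limit between the classes, ndufc2 (ENSDARG00000102115) and VIL1 (ENSDARG00000040466) were returned with a combined change of 0.50, and apoea (ENSDARG00000102004) and zgc:194210 (ENSDARG00000073799) were partly returned, also with 0.50 after rounding.

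Where a single isomer moved a gene by 0.5 or more, 1746 called genes were back within 0.5 of control in combined larvae. DiBP was the moving isomer in 1264 of them and DBP in 482. Over all genes tested, DiBP changes reached 0.5 in 7094 and DBP changes in 5166, genes moved by both included. The split is therefore not read as a trait of either isomer. In 146 such genes the combined larvae crossed to the other side, and in 71 they kept a change of 0.5 or more in the isomer's direction.

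Class membership was less stable than the interaction call. Of the 6626 called genes, 4491 (67.8%) were called with each of the 11 libraries left out in turn. Of the 1630 returned genes, 339 (20.8%) kept that class in all 11 refits, and so did 20 of the 89 overshot and 2 of the 18 additive genes. The interaction stayed called in all 11 refits for 1349 of the returned and 77 of the overshot genes.

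The circadian clock held many of the strongest interactions. It is a feedback loop in which Clock and Bmal proteins (positive limb) switch on per, cry, Rev-erb (nr1d) and Dec (bhlhe) genes, whose products (negative limb) then repress them. In zebrafish larvae most tissues run this loop and set it by light. The hour of collection of each group is not given, so exposure and hour of collection cannot be told apart for these genes. Of 49 clock genes tested, 13 had a called positive interaction and 20 a called negative one, beside 15.5% and 18.5% of all genes. The median interaction was -3.03 over 21 genes of the negative limb, of which 13 were called negative and 5 positive. It was 1.0 over 12 genes of the positive limb, of which 6 were called positive and 1 negative.

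PER1 (ENSDARG00000012499), a period gene of the negative limb, had 0.66, 0.491 and 1.58 FPKM in combined larvae, 3.61, 3.58 and 3.75 FPKM in DBP larvae and 23.8, 25.9 and 24.1 FPKM in DiBP larvae, against 0.664 and 0.725 FPKM in control larvae. Combined and control larvae overlapped, and both isomer groups lay above them without overlap. Its interaction was -7.19 (SE 0.43, limma adjusted p = 7.6e-07). CRY2 (ENSDARG00000102403), a cryptochrome repressor, had 1.84, 1.63 and 1.94 FPKM in combined, 3.51, 2.97 and 4 FPKM in DBP and 16, 20.3 and 18.8 FPKM in DiBP larvae, against 1.93 and 2.18 FPKM in control larvae. It was returned as well, with an interaction of -4.21 (SE 0.20, limma adjusted p = 1.6e-07). BHLHE41 (ENSDARG00000041691), a Dec repressor, followed this order with an interaction of -3.77 (SE 0.22). A second gene with the symbol PER1 (ENSDARG00000056885) was not returned. It lay between the smaller and the larger single change, with a combined change of 1.32, and of 0.52 without combined library 3.

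cry3b (ENSDARG00000091131), another cryptochrome, ran the opposite way. It had 105, 103 and 113 FPKM in combined, 54.7, 53.9 and 56.3 FPKM in DBP and 18.2, 19.8 and 17.4 FPKM in DiBP larvae, against 105 and 112 FPKM in control larvae. Both isomer groups lay below the others, and combined and control libraries overlapped. The interaction was 3.29 (SE 0.13, limma adjusted p = 3.2e-08), and it stayed between 3.22 and 3.35 without control library 1, control library 2 or combined library 3. The Rev-erb genes nr1d4a (ENSDARG00000031161) and nr1d4b (ENSDARG00000059370), also of the negative limb, overshot upwards with interactions of 4.08 and 4.52. Without combined library 3 these were 3.24 and 4.01.

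BHLHE40 (ENSDARG00000004060), the other Dec repressor, overshot. It had 10.6, 11.5 and 7.23 FPKM in combined, 105, 104 and 107 FPKM in DBP and 145, 149 and 141 FPKM in DiBP larvae, against 40.1 and 33.3 FPKM in control larvae. No group overlapped another: the isomers lay above control and the combined larvae below it. The interaction was -5.65 (SE 0.19, limma adjusted p = 6e-09), and the combined larvae were lower than control by a log2 change of -1.99 (limma adjusted p = 0.00013). bmal2 (ENSDARG00000041381), of the positive limb, overshot upwards, with 7.93, 6.97 and 8.54 FPKM in combined, 1.88, 1.86 and 1.85 FPKM in DBP and 0.471, 0.818 and 0.724 FPKM in DiBP larvae, against 4.09 and 2.99 FPKM in control larvae. Its interaction was 4.06 (SE 0.26, limma adjusted p = 1.4e-06). PER3 (ENSDARG00000010519) overshot downwards with an interaction of -3.96 (SE 0.22), but without control library 2 its DBP change was under 0.5 and it left the class.

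Outside the named clock genes, si:ch211-132b12.7 (ENSDARG00000068374) had the most negative interaction among named genes, -7.62 (SE 0.23, limma adjusted p = 2.9e-09). It had 1.01, 1.14 and 0.605 FPKM in combined, 6.48, 6.78 and 7.38 FPKM in DBP and 46, 50.4 and 47.2 FPKM in DiBP larvae, against 1.85 and 1.91 FPKM in control larvae. fbxl3l (ENSDARG00000037738), named like the F-box proteins that mark cryptochromes for degradation in mammals, overshot upwards with an interaction of 5.30 (SE 0.38).

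Several clock genes rested on combined library 3. NR1D1 (ENSDARG00000033160), a Rev-erb repressor, had 6.17, 5.84 and 84.8 FPKM in combined, 3.88, 4.42 and 4.82 FPKM in DBP and 82.9, 90.6 and 88.8 FPKM in DiBP larvae, against 1.32 and 1.27 FPKM in control larvae. Combined library 3 was at the DiBP level and the other 2 combined libraries were near the DBP level. Without combined library 3 its combined change was 2.02 in place of 3.33, and its interaction -5.76 in place of -4.46. NR1D2 (ENSDARG00000009594), its relative, had 11.4, 11.8 and 43.4 FPKM in combined larvae, against 12.4 and 10.2 FPKM in control larvae. It counted as partly returned with all libraries and as returned without combined library 3, with interactions of -4.47 and -5.14. nfil3-5 (ENSDARG00000094965), an output repressor, had 123, 124 and 14.1 FPKM in combined larvae, against 130 and 95.8 FPKM in control larvae, and likewise became returned without that library. nfil3-6 (ENSDARG00000087188) was overshot with all libraries and returned without it, and rorcb (ENSDARG00000017780), a Ror activator, was level-held and became partly returned. Over the whole clock list the median interaction was -0.55 with all libraries and -0.22 without combined library 3. This median pools the limbs, which ran opposite ways, so it does not measure the strength of the interactions. Called genes numbered 13 positive and 20 negative with all libraries, and 13 and 22 without combined library 3.

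**Figure D2:**
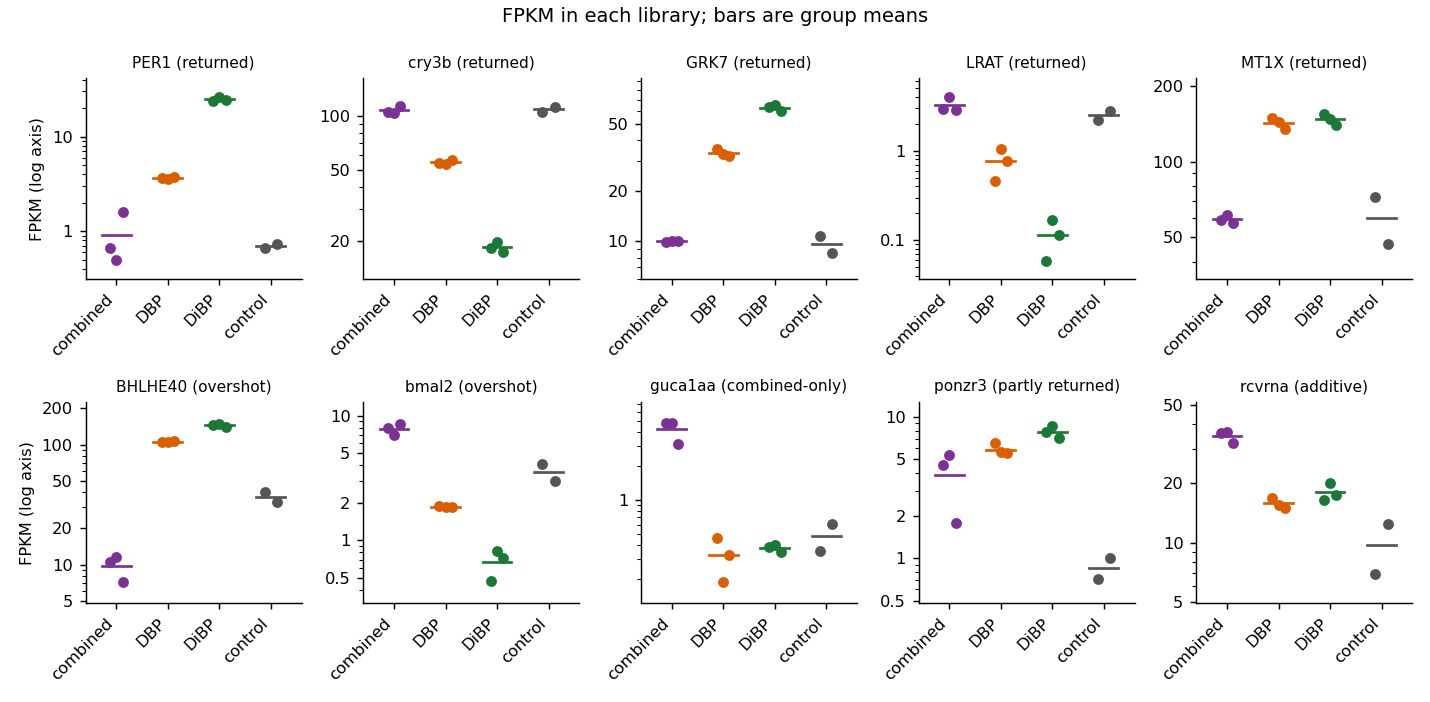
FPKM on a log axis in each library of the combined, DBP, DiBP and control groups for 10 genes, with bars at the group means. PER1, cry3b, GRK7, LRAT and MT1X have combined means near the control means, BHLHE40 and bmal2 lie beyond control, guca1aa differs in combined larvae alone, ponzr3 lies between, and rcvrna is higher in combined larvae than in either isomer group.

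aanat2 (ENSDARG00000079802), a pineal enzyme that makes the precursor of melatonin, was high in combined larvae alone. It had 42.5, 42.6 and 22.7 FPKM there, 5.17, 3.8 and 4.13 FPKM in DBP and 4.71, 3.37 and 3.45 FPKM in DiBP larvae, against 6.07 and 6.7 FPKM in control larvae. In all 3 combined libraries it lay above every other library, and the interaction was 3.49 (SE 0.33, limma adjusted p = 1.9e-05). As for the clock genes, exposure and hour of collection cannot be told apart here.

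Among genes of the photoreceptor response to light, opsins and the genes that switch them off ran opposite ways, while other roles were mixed. In these cells light activates an opsin, transducin and a phosphodiesterase relay the signal, and opsin kinases and arrestins switch the opsin off. Of 65 such genes tested, 19 were called positive and 18 negative, beside 15.5% and 18.5% of all genes, with a median interaction of -0.07. Of 8 opsins, 6 were called positive and none negative (median interaction 1.77). Of 8 opsin kinases and arrestins none was called positive and 5 negative (median -1.82). Of 14 transducin and phosphodiesterase genes 5 were called positive and 3 negative (median -0.06). Of 16 genes of the retinoid (vitamin A) cycle 5 and 4 were (median 0.35), and of 19 calcium feedback and channel genes 3 and 6 (median -0.48). The photoreceptor marker sum was 1440 to 1960 FPKM in combined, 1480 to 1550 FPKM in DBP and 1580 to 1760 FPKM in DiBP larvae, against 922 to 1210 FPKM in control larvae, and in whole larvae fewer cells of a type and less RNA per cell cannot be told apart.

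The opsins, which detect light, were mostly higher in combined larvae than in the other groups. Against DBP larvae 7 of 8 were called higher (9.14% of all genes), against DiBP larvae 8 of 8 (11.1%) and against control 5 of 8 (1.76%). opn1mw1 (ENSDARG00000097008), a green cone opsin singled out after its values were seen, had 539, 531 and 446 FPKM in combined, 164, 158 and 155 FPKM in DBP and 92.5, 94.1 and 81.8 FPKM in DiBP larvae, against 173 and 209 FPKM in control larvae. Its interaction was 2.54 (SE 0.15, limma adjusted p = 4.8e-07). The red cone opsin opn1lw1 (ENSDARG00000044862) overshot with an interaction of 3.68.

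Several cone genes that relay or end the light response returned. GRK7 (ENSDARG00000020602), a cone opsin kinase, had 9.89, 10.1 and 10.1 FPKM in combined, 35.3, 33.1 and 32.5 FPKM in DBP and 63.5, 65 and 59.8 FPKM in DiBP larvae, against 10.8 and 8.55 FPKM in control larvae. The combined libraries lay within the control range and below every isomer library. The interaction was -4.64 (SE 0.14, limma adjusted p = 2.9e-09). PDE6C (ENSDARG00000100397), the catalytic subunit of cone phosphodiesterase, had 27.6, 26.1 and 17.5 FPKM in combined, 77.8, 74.9 and 73.4 FPKM in DBP and 161, 170 and 151 FPKM in DiBP larvae, against 24.5 and 30.9 FPKM in control larvae, with an interaction of -4.44 (SE 0.20). The cone arrestin gene ARR3 (ENSDARG00000056511) was partly returned, with an interaction of -3.82 (SE 0.18).

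LRAT (ENSDARG00000037278), which stores vitamin A as retinyl ester, was returned from below. It had 2.95, 4.01 and 2.89 FPKM in combined, 0.461, 1.05 and 0.772 FPKM in DBP and 0.0587, 0.168 and 0.115 FPKM in DiBP larvae, against 2.23 and 2.75 FPKM in control larvae. The interaction was 5.46 (SE 0.47, limma adjusted p = 9.6e-06). GUCA1A (ENSDARG00000101567), which carries the name of a calcium sensor of guanylate cyclase, had 4.3, 5 and 0.672 FPKM in combined, 0.0514, 0.0275 and 0.043 FPKM in DBP and 0.0785, 0.187 and 0.204 FPKM in DiBP larvae, against 1.99 and 2.8 FPKM in control larvae. Its interaction of 7.36 (SE 0.80) was the most positive among named genes, and without combined library 3 it was 8.20 and the gene counted as overshot. Its relative guca1aa (ENSDARG00000010454) had 4.73, 4.78 and 3.09 FPKM in combined, 0.463, 0.186 and 0.323 FPKM in DBP and 0.383, 0.394 and 0.345 FPKM in DiBP larvae, against 0.353 and 0.604 FPKM in control larvae. It was combined-only, with an interaction of 3.44 (SE 0.42, limma adjusted p = 0.00011). Reads that fit both relatives could be divided between them, and the counting rule is not stated in the sources used here.

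Genes of mitosis returned from below. They build the spindle and drive chromosome separation, and their transcripts follow the number of dividing cells. Of 44 tested, 40 were called positive and none negative, beside 15.5% and 18.5% of all genes, and the median interaction was 1.63. Returned genes made up 32 of the 44, beside 8.37% of all genes. The median change was -0.33 in combined, -0.74 in DBP and -1.18 in DiBP larvae. In comparisons with control, 2 of 44 were called lower in combined larvae (1.69% of all genes), 24 in DBP larvae (5.52%) and 38 in DiBP larvae (14.0%). Without the controls, 34 were called higher in combined than in DiBP larvae (11.1% of all genes) and 13 higher than in DBP larvae (9.14%).

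TOP2A (ENSDARG00000024488), a topoisomerase of dividing cells, had 3.7, 3.68 and 2.68 FPKM in combined, 1.64, 1.91 and 2.09 FPKM in DBP and 1.06, 1.29 and 1.02 FPKM in DiBP larvae, against 3.38 and 5.01 FPKM in control larvae. Combined and control libraries overlapped, and every isomer library lay below both. Its interaction was 2.38 (SE 0.25, limma adjusted p = 3.6e-05). cenpe (ENSDARG00000063385), a kinetochore motor, had an interaction of 2.26 (SE 0.20), and CCNA2 (ENSDARG00000011094), a cyclin, had 1.80 (SE 0.20). The 44 genes of DNA replication did not share this pattern: 6 were called positive and 7 negative, with a median interaction of -0.10. The median over mitosis and replication genes together was 0.93 with all libraries. Leaving out control library 1 gave 0.89, control library 2 gave 0.93 and combined library 3 gave 1.01. Of the 33 returned genes of mitosis and replication, 11 kept that class with each of the 11 libraries left out in turn.

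Proteasome genes ran the opposite way. The proteasome degrades tagged proteins. Of 45 subunit genes tested, 39 were called negative and 1 positive, beside 18.5% and 15.5% of all genes. Among the 45, 22 were returned, beside 8.37%. Only 1 of these 22 kept that class with each of the 11 libraries left out in turn. The median change was 0.34 in combined, 0.59 in DBP and 1.04 in DiBP larvae, and the median interaction was -1.25. Against DiBP larvae 36 of 45 were called lower in combined larvae (12.9% of all genes), with a median difference of -0.63. Against DBP larvae 8 of 45 were called lower, beside 2135 of all 19465 genes, with a median difference of -0.3. PSMC4 (ENSDARG00000027099), an ATPase of the regulatory cap, had 36.2, 34.8 and 35.3 FPKM in combined, 39.9, 39.9 and 40.9 FPKM in DBP and 61.1, 59.6 and 66.5 FPKM in DiBP larvae, against 21.9 and 29.3 FPKM in control larvae. Combined larvae lay between control and DBP larvae without overlap. Its interaction was -1.69 (SE 0.16, limma adjusted p = 1.8e-05), and without control library 2 it counted as partly returned.

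**Figure D3:**
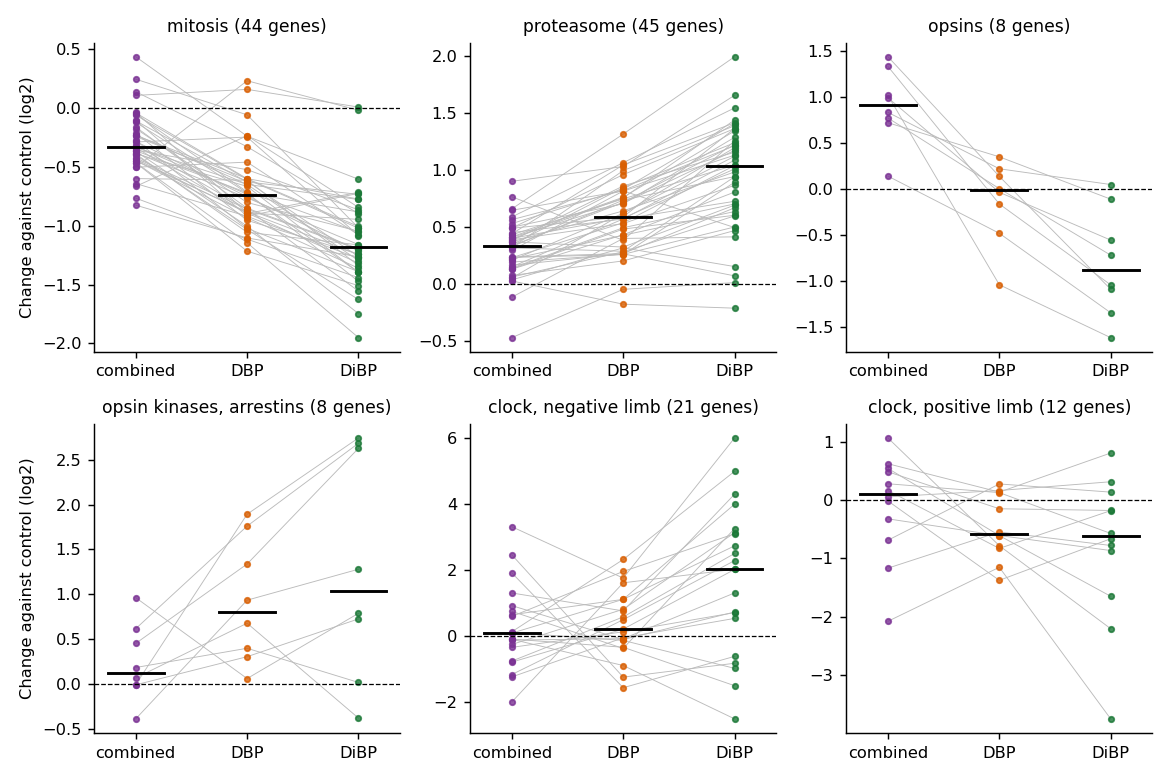
Change against control (log2) of each gene in combined, DBP and DiBP larvae, with a grey line per gene and black bars at the medians, for 6 groups of genes. The 44 mitosis genes have a median of -0.33 in combined larvae, and the 45 proteasome genes one of 0.34, in both cases nearer to 0 than in either isomer group.

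Among acute response genes, which cells induce within minutes of a stimulus, 32 of 61 were called negative and 3 positive, beside 18.5% and 15.5% of all genes, and 12 were returned, beside 8.37%. The median change was -0.17 in combined, 0.19 in DBP and 0.26 in DiBP larvae. Against control, 8 of the 61 were called lower in combined larvae, beside 1.69% of all genes, and none higher, beside 1.76%. SOCS3 (ENSDARG00000025428), a feedback inhibitor of cytokine signalling, had 42.4, 44.4 and 43.6 FPKM in combined, 79.9, 83.9 and 85.9 FPKM in DBP and 83.8, 89.1 and 86.6 FPKM in DiBP larvae, against 44.7 and 46 FPKM in control larvae. The 2 isomer groups overlapped, and the combined libraries lay just below control. The interaction was -2.08 (SE 0.11, limma adjusted p = 2.7e-07). GADD45B (ENSDARG00000027744), a stress response gene, had 128, 129 and 120 FPKM in combined, 282, 292 and 288 FPKM in DBP and 279, 264 and 273 FPKM in DiBP larvae, against 145 and 166 FPKM in control larvae, with an interaction of -2.22 (SE 0.13). sgk1 (ENSDARG00000025522), a kinase induced by glucocorticoid, had an interaction of -1.79 (SE 0.13). SOCS3, GADD45B and sgk1 stayed returned without control library 1, control library 2 or combined library 3.

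MT1X (ENSDARG00000041623), a metallothionein that binds metals, had 58.4, 61.2 and 57.3 FPKM in combined, 150, 144 and 135 FPKM in DBP and 156, 148 and 140 FPKM in DiBP larvae, against 72.4 and 46.9 FPKM in control larvae. The combined libraries lay between the 2 controls. The interaction was -2.83 (SE 0.20, limma adjusted p = 2.6e-06). THRA (ENSDARG00000000151), a thyroid hormone receptor, had 2.99, 3.37 and 3.06 FPKM in combined, 5.03, 4.7 and 4.61 FPKM in DBP and 4.88, 5.62 and 5.03 FPKM in DiBP larvae, against 2.53 and 2.49 FPKM in control larvae. It was returned with an interaction of -1.81 (SE 0.16). HSF2 (ENSDARG00000053097), a heat shock transcription factor, was returned with an interaction of -2.90 (SE 0.21).

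HSPA5 (ENSDARG00000103846), a chaperone of the endoplasmic reticulum, was one of the combined-only genes. It had 23.6, 23.2 and 13.4 FPKM in combined, 39.8, 42.9 and 37.8 FPKM in DBP and 39.6, 36.1 and 38.2 FPKM in DiBP larvae, against 30.5 and 37.3 FPKM in control larvae. The combined libraries lay below all others. The interaction was -1.42 (SE 0.25, limma adjusted p = 0.0011). KIF25 (ENSDARG00000017532), named like a kinesin motor, had 3.36, 3.75 and 3.57 FPKM in combined, 0.612, 0.81 and 0.944 FPKM in DBP and 0.802, 1.22 and 0.841 FPKM in DiBP larvae, against 0.682 and 1.19 FPKM in control larvae, with an interaction of 1.81 (SE 0.35). Both remained combined-only without control library 1, control library 2 or combined library 3.

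Many genes of digestive and structural tissues had called negative interactions, beside 18.5% negative and 15.5% positive over all genes. Of 48 intestinal genes 34 were called negative and 1 positive (median interaction -2.01), of 87 muscle genes 58 and 2 (median -1.53), of 22 digestive enzyme genes of the exocrine pancreas 17 and 1 (median -1.44), and of 43 skin genes 31 and 0 (median -1.29). In comparisons with control, 6 of the 48 intestinal genes were called higher in combined larvae (1.76% of all genes), 32 in DBP larvae (9.6%) and 26 in DiBP larvae (15.8%). Of the 87 muscle genes 41 were partly returned, beside 3.51% of all genes, and 27 were not called, beside 12839 of all 19465. Their median change was 0.65 in combined, 1.02 in DBP and 1.23 in DiBP larvae. Leaving out control library 1 gave a median muscle interaction of -0.80, and leaving out control library 2 gave -2.26; the muscle marker sum was 10400 to 12700 FPKM in combined larvae, against 1440 and 10900 FPKM in the 2 controls. In control libraries 1 and 2 the marker sum was 38.5 and 77.8 FPKM for intestine. It was 165 and 518 FPKM for exocrine pancreas and 382 and 869 FPKM for skin. Without control library 1 the median interactions of these lists were -1.59, -0.87 and -0.79. Without control library 2 they were -2.13, -2.05 and -1.83. The part of these differences between the controls in the muscle, intestinal, pancreatic and skin results was not tested beyond leaving each out.

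mep1a.1 (ENSDARG00000029747), an intestinal metalloprotease, had 2.04, 2.14 and 2.42 FPKM in combined, 4.8, 5.4 and 4.56 FPKM in DBP and 4.54, 5.08 and 6.05 FPKM in DiBP larvae, against 1.77 and 1.45 FPKM in control larvae. Its interaction was -2.97 (SE 0.23, limma adjusted p = 5.4e-06). epcam (ENSDARG00000040534), an adhesion protein of epithelia, was returned with an interaction of -1.89 (SE 0.14), and stayed so with either control left out. CPA1 (ENSDARG00000021339), a pancreatic carboxypeptidase, had 34.7, 38.1 and 23.3 FPKM in combined, 73.3, 82.2 and 64.9 FPKM in DBP and 44.6, 45.2 and 47 FPKM in DiBP larvae, against 19.1 and 36.7 FPKM in control larvae. It counted as returned with both controls, as partly returned without control library 2, and as moved by 1 isomer without control library 1. ponzr3 (ENSDARG00000088589) was partly returned with an interaction of -4.0 (SE 0.46).

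In the lens, 11 of 47 genes were called positive and none negative, beside 15.5% and 18.5% of all genes, with a median interaction of 1.6. The combined, DBP and DiBP medians were -2.07, -1.49 and -2.13, so the combined larvae were at the level of the isomers. Level-held genes made up 9 of the 47, beside 0.801% of all genes. Leaving out control library 1 gave a median of 0.22 and 6 positive calls, and leaving out control library 2 gave 2.75 and 42. crygm2d9 (ENSDARG00000115701), a crystallin, had 56.9, 51.7 and 36.4 FPKM in combined, 61.6, 57.1 and 50 FPKM in DBP and 29, 30.6 and 31.5 FPKM in DiBP larvae, against 671 and 97.3 FPKM in control larvae. The 2 controls differ by more than the combined, DBP and DiBP groups differ from one another. The interaction of crygm2d9 was 2.62 with all libraries, 1.23 without control library 1 and 4.01 without control library 2. Crystallin genes of the crygm2d series are near-identical copies whose reads could be divided among them.

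**Figure D4:**
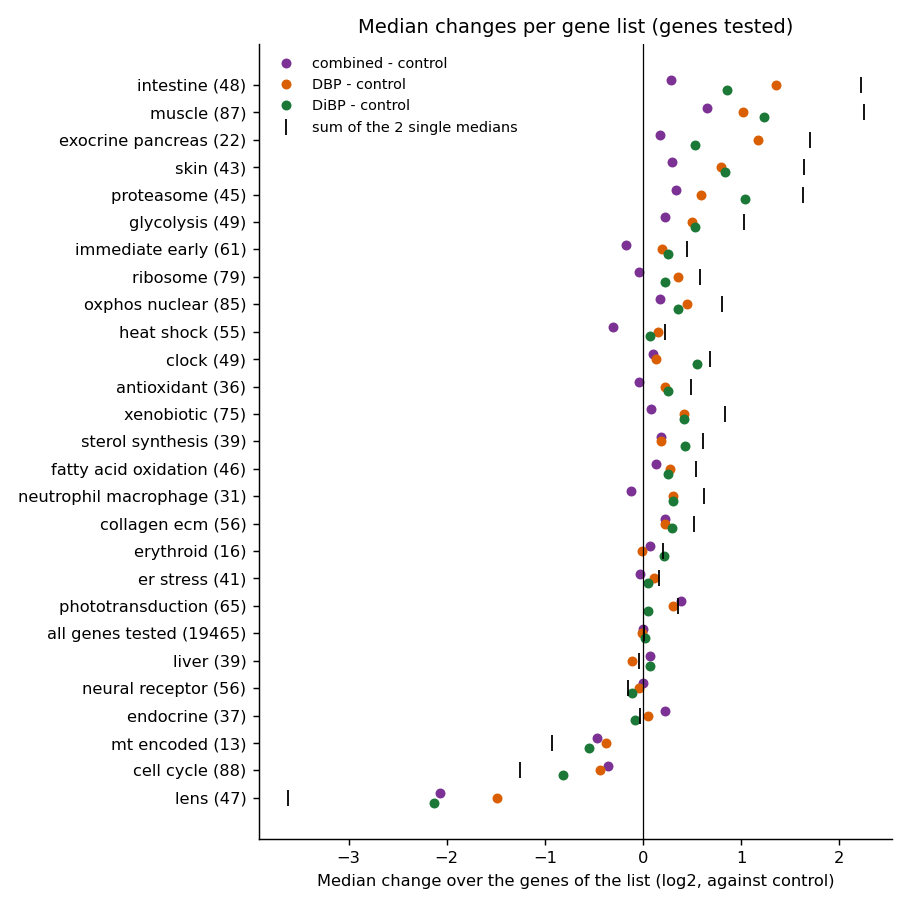
Median change against control (log2) of the genes of each list in combined, DBP and DiBP larvae, with a tick at the sum of the 2 single medians; numbers in brackets are genes tested. In intestine, muscle, proteasome and cell cycle lists the combined median lies well short of the tick.

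**Figure D5:**
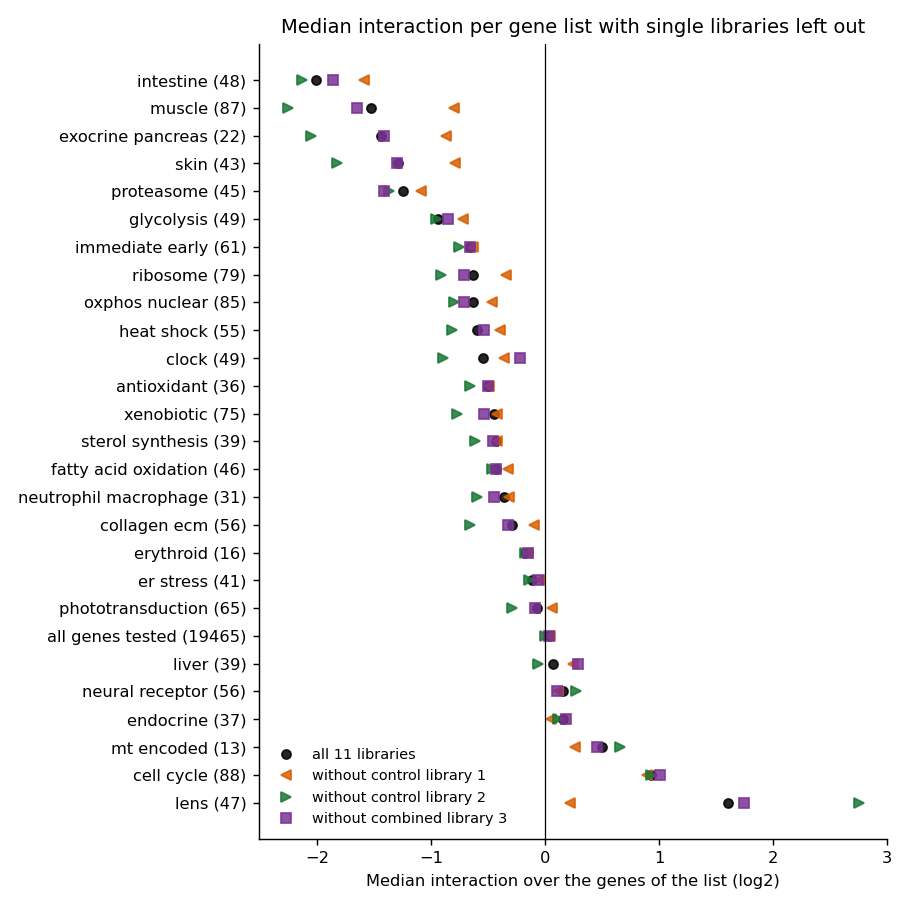
Median interaction (log2) of each gene list with all 11 libraries and with control library 1, control library 2 or combined library 3 left out. The cell cycle and proteasome medians moved little, while the muscle, pancreas, skin and lens medians moved by 0.5 or more when a control was left out.

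Broad housekeeping groups had smaller medians. Over all genes, 18.5% were called negative and 15.5% positive. Of 85 nuclear genes of oxidative phosphorylation 58 were called negative and 1 positive, with a median interaction of -0.63. Of 79 ribosomal protein genes 35 were called negative and none positive, with the same median of -0.63. With values as deposited, where 2770 of all 19465 genes were called negative, 11 ribosomal protein genes were, a share near that of all genes. Over all genes the median interaction was then 0.23, and 4796 were called positive. The ribosomal protein genes then had a median of -0.42 and no positive call. Leaving out control library 1 gave 24 negative calls and a median of -0.34, control library 2 gave 73 and -0.91, and combined library 3 gave 57 and -0.71. Of 49 genes of glycolysis 29 were called negative and 3 positive (median -0.94).

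Few genes could be placed as additive, and their number depends on the precision of the interaction. Beside them, 846 uncalled genes with both single changes of the same sign had intervals too wide to place. The 18 genes whose interval lay inside -1 to 1 had median sizes of change of 0.92 in combined, 0.59 in DBP and 0.65 in DiBP larvae. In combined larvae 16 of them were called against control (3.44% of all genes), 4 against DBP (20.1%) and 5 against DiBP larvae (24.0%). The choice of these genes favours a large combined change, so nothing is read from these counts. The interval is wide beside the sums, so the class also holds genes whose combined change was near that of 1 isomer. si:ch211-156b7.4 (ENSDARG00000101707) had changes of -0.56 in combined, -0.53 in DBP and -0.53 in DiBP larvae, with an interval of 0.08 to 0.91. rcvrna (ENSDARG00000052223), recoverin, a calcium sensor of photoreceptors, had 36, 36.5 and 32 FPKM in combined, 16.9, 15.5 and 15 FPKM in DBP and 16.5, 20.1 and 17.5 FPKM in DiBP larvae, against 6.98 and 12.4 FPKM in control larvae. Both isomer groups lay above control, and the combined libraries lay above all isomer libraries. Its interaction was -0.02, with a 95% interval of -0.55 to 0.51. It left the additive class with either control left out: the interaction was 0.39 and not called without control library 1, and -0.43 and called (limma adjusted p = 0.034) without control library 2. asic1b (ENSDARG00000101866), an acid-sensing ion channel, had 1.34, 1.39 and 1.12 FPKM in combined, 0.661, 0.724 and 0.812 FPKM in DBP and 0.64, 0.949 and 0.641 FPKM in DiBP larvae, against 0.404 and 0.493 FPKM in control larvae. Its interaction was -0.06, with an interval of -0.66 to 0.53. STMN1 (ENSDARG00000004169), which destabilizes microtubules, was an additive gene that was lower, with 4.25, 4.33 and 2.98 FPKM in combined, 4.01, 4.7 and 4.44 FPKM in DBP and 4.15, 4.36 and 4.24 FPKM in DiBP larvae, against 6.86 and 7.42 FPKM in control larvae. Its combined libraries overlapped both isomer groups, and its interval of -0.07 to 0.73 admits a combined change no larger than that of 1 isomer. Without combined library 3 its interaction was 0.47 and called (limma adjusted p = 0.025), so it was then not additive. asic1b and STMN1 were singled out after their values were seen. With 1 DBP, DiBP or combined library left out, 8 to 11 of the 18 genes were still additive, and fewer were with 1 control left out. Which genes count as additive therefore rests on every library.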

How the data were processed

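Whole-larva RNA was measured in 11 libraries. The authors deposited 1 FPKM value per gene and library; per the submitters' processing notes, HISAT2 2.1.0, HTSeq 0.6.0 and the build GRCz10 were used. The sources used here state no annotation release, strandedness or counting rule, so reads of a gene and of one that overlaps it, also on the other strand, cannot be told apart. Per the labels' protocols, NEBNext Ultra libraries were made from 3 µg of Trizol RNA and sequenced as 150 bp paired ends. FPKM values printed are as deposited.

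Whole reads were recovered for 100% of the values. Genes were kept if 2 or more libraries reached the CPM equal to 10 reads and the total was 15 or more. limma 3.58.1 (R 4.3.3) was fitted to log2(FPKM / TMM factor + 0.1) with 4 group means, a variance trend, 7 residual and 5.2 prior degrees of freedom, and Benjamini-Hochberg adjustment within each contrast at 0.05. The procedure was tested on simulated data. Classes used a least change of 0.5; additive genes also needed a sum of single changes of at least 1.

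The classes and the 26 gene lists (1273 of 1411 names found) were chosen with earlier results of these data known. Named genes were the 8 most positive and 8 most negative called interactions, the 5 leading genes per class, the 3 smallest p of each list with 3 or more called members, and every called clock gene, with a mean of 20 reads for the first 2 rules. Of these, 1 per role or pattern is described in full. Symbols follow the gene table, which often gives human symbols, so Ensembl IDs are printed. Alternatives covered scaling, filter, pseudocounts of 0.01 and 1, voom, replicate block, libraries left out and class limits; the linear scale was chosen after seeing the data. Same-numbered libraries correlated by -0.034 to 0.136 over 15 pairs and were not treated as pairs. The single values of 1 gene are not reported here.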

Additional observations from a re-analysis of the deposited data

Results flagged for a closer look

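The interaction, which compares the combined change with the sum of the single changes, was called by limma in 6626 genes. It was positive in 3016 of them and negative in 3610. The doses are not given, so the combination and a different dose of each isomer cannot be told apart.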

How the results depend on the processing

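The interaction was called in 6626 genes, in 6623 by voom on the recovered reads, and in 6275 with replicate number as a block, although the labels state no pairing by number; 6 of the 11 libraries had their best correlation with a library of the same number. Counting only interactions of at least 1 left 3523. Values as deposited gave 4796 positive calls. A mean CPM of 5 or more, which tests fewer genes, gave 1013 returned, 38 overshot, 407 partly returned, 62 level-held and 9 additive genes. A pseudocount of 1, which shrinks low genes, gave 28 overshot, 326 partly returned and 75 level-held genes. Leaving out control library 1 and combined library 3 together gave 426 partly returned and 409 combined-only genes; the cause was not tested. A least change of 0.3 gave 299 overshot, 1331 partly returned, 265 level-held and 38 additive genes, and one of 1 gave 627 returned, 20 overshot, 138 partly returned, 44 level-held, 70 combined-only and 0 additive genes. An interval within -0.58 to 0.58 left 1 additive gene. With 1 library left out at a time, calls ran from 5239 to 8604 (positive 2254 to 4123, negative 2972 to 4481), returned genes from 1271 to 1877, overshot from 63 to 110, partly returned from 390 without control library 1 to 1732 without control library 2, level-held from 104 to 625, combined-only from 109 to 241 and additive from 8 to 63. Among 137 named genes, npdc1a gave 0.89 without control library 1 and reversed to -0.58 without control library 2 (0.15 with all) and rcvrna with both apart libraries left out (0.41); at most 6 were no longer called under any alternative, and 25 were not tested at the higher CPM. Of 520 list medians under alternatives, 430 moved by less than 1 SD between replicates. Precision differed between genes: 846 concordant genes had intervals too wide to place.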

Other observations

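Some genes changed by 0.5 or more with 1 isomer only and lay within 0.5 of control in combined larvae. ern1 (ENSDARG00000013997), which detects misfolded protein in the secretory pathway, had 1.65, 1.74 and 1.76 FPKM in combined, 5.35, 5.03 and 6.11 FPKM in DBP and 2.06, 2.22 and 1.9 FPKM in DiBP larvae, against 2.13 and 1.85 FPKM in control larvae. The DBP libraries lay above all others and the combined libraries below all others. The interaction was -1.88 (SE 0.16, limma adjusted p = 9.3e-06). abcb5 (ENSDARG00000021787), a membrane transporter, had 1.55, 1.92 and 1.78 FPKM in combined, 2.94, 2.64 and 2.64 FPKM in DBP and 4.42, 5.58 and 4.94 FPKM in DiBP larvae, against 1.96 and 2.4 FPKM in control larvae, with an interaction of -1.98 (SE 0.17). Its DBP libraries also lay above both controls, and its combined libraries lay below both. si:dkeyp-1h4.8 (ENSDARG00000092833) was listed at 0 in every combined, DBP and control library and at 3.76, 4.78 and 3.76 FPKM in DiBP larvae.

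Plasma protein genes of the liver differed from the intestinal genes: 3 of 39 tested were called positive and 1 negative, with a median interaction of 0.07, beside 0.03 over all genes. Of 56 receptor genes for glutamate, GABA and glycine, 11 were called positive and 7 negative (median 0.16), near the 15.5% and 18.5% of all genes.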
